A study of Rattus norvegicus with 6 samples.

Results

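Enzymes that make serine and carry its one-carbon unit on folate were examined in the rat renal cortex. The list held 9 genes: Phgdh, Psat1 and Psph of serine synthesis, Shmt1 and Shmt2 of serine-glycine interconversion, and Mthfd1, Mthfd2, Mthfd1l and Aldh1l1 of folate-bound one-carbon metabolism. Array probes were assigned by the RefSeq transcript they were designed to, which gave 14 probes for 8 of the 9 genes, out of 42657 probes and 31582 genes or sequences tested. No probe matched Shmt1 by this rule, and it was not analysed here. The list was partly chosen by measured values of this comparison, because Mthfd2 and Psat1 were lower in these same arrays. The values of Mthfd2 and Psat1, and whether they passed the threshold, are therefore given as a description and not as a test.

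Male Sprague-Dawley (Crl:CD(SD)) rats, 5 weeks old at purchase and fed a basal diet, formed 2 groups of 3 animals. The control animals were given corn oil for 4 weeks. The treated animals were given 2,2-bis(bromomethyl)-1,3-propanediol (BBMP) at a dose of 1000 mg/kg/day over the same 4 weeks. BBMP is a small diol that carries bromine. Total renal cortex RNA of each animal was hybridised to 1 one-colour Agilent array, and the question is which genes differ between BBMP and control cortex.

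Serine is built from the glycolytic intermediate 3-phosphoglycerate in a short chain of reactions, and the kidney is a known site of this synthesis, mainly in the proximal tubule. Serine hydroxymethyltransferases then split serine into glycine and a one-carbon unit bound to tetrahydrofolate. That unit is oxidised and reduced in parallel mitochondrial and cytosolic branches, linked by formate, and it feeds purine, thymidylate and methionine synthesis.

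The 250 bases upstream of the annotated start sites are shown for the 3 enzymes whose brightest probe passed the threshold, since these are the regions a reader would inspect next. They come from RefSeq on the GRCr8 assembly, read 5′ to 3′ along the gene, and capitals mark a CCAAT box (CCAAT, or ATTGG on the other strand). Psat1 is at chr1:222645409-222645658 on the minus strand, Mthfd2 at chr4:117380351-117380600 on the minus strand and Aldh1l1 at chr4:124616970-124617219 on the plus strand. The array measures transcript level, not promoter activity.
Psat1: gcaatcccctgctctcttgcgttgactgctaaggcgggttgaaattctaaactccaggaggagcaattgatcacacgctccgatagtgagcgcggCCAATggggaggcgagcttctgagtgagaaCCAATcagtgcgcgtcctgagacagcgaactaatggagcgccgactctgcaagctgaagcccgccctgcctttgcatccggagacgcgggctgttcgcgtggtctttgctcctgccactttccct
Mthfd2: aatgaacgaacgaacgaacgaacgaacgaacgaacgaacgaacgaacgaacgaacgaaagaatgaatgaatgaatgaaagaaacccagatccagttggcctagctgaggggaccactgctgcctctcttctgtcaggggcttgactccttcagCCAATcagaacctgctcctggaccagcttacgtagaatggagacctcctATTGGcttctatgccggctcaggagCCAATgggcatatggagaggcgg
Aldh1l1: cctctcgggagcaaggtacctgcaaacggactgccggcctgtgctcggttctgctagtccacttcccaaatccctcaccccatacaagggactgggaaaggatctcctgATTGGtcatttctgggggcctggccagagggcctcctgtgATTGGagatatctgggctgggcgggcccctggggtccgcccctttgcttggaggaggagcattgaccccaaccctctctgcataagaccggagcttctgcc
The Mthfd2 window held 3 CCAAT boxes, and the Psat1 and Aldh1l1 windows held 2 each. Of the 33469 rat windows of this length, 34.0% held at least 1, and the share with more than 1 was not counted. A GC box (GGGCGG, or CCGCCC on the other strand) matched 2 times in the Aldh1l1 window and 1 time in that of Psat1, against 30.5% of all windows with a match. The C/EBP-ATF element TGATGNAA (TTNCATCA on the other strand), the E-box CACGTG and the antioxidant response element core TGACNNNGC (GCNNNGTCA on the other strand) had 0 matches in these windows. Of all windows, 3.4%, 5.59% and 10.1% held them. No match of 1 motif shared bases with a match of another in the 3 windows. Among the enzymes not shown, the windows of Phgdh and Shmt1 held 1 CCAAT box each, and those of Psph, Shmt2 and Mthfd1l held 0. A match is a description of the letters, not of a bound site.

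Signals below are relative signals: the processed signal of a probe divided by the 75th percentile of its array. Differences are BBMP minus control on the log2 scale, with the standard error (SE) of the fit by limma. A gene was called where its limma p, adjusted over all genes by Benjamini-Hochberg, was under 0.05. The levels of different probes are not compared, because probes differ in how brightly they bind. In bulk tissue, fewer cells of a type and less RNA per cell cannot be told apart.

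Of the 8 measured enzymes, Aldh1l1 was called higher, Mthfd2 and Psat1 were called lower, and 5 were not called. The calls of Mthfd2 and Psat1 describe the values that chose the list and are no test of them. Over all genes, 17.9% were called, 10.2% higher and 7.68% lower. Nothing is read from the members' count against that background, because the same contrast chose part of the list. Without control replicate 2, control replicate 3 or BBMP replicate 3, 1 enzyme was called lower, and without control replicate 3, 2 were called higher. Without BBMP replicate 1 or BBMP replicate 2, limma called 0 of the 8, and 2 and 4 genes in the whole table. Of the 14 probes, 5 were called, 2 higher and 3 lower, beside 17.8%, 10.3% and 7.46% of all probes, and nothing is read from this either. The number of called probes was 2 without control replicate 2 or BBMP replicate 3 and 0 without BBMP replicate 1 or 2. The groups did not overlap in 4 of the 8 enzymes, against 43.6% of all genes. The median difference of the 8 enzymes was -0.035, beside 0.049 over all genes.

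**Figure D1:**
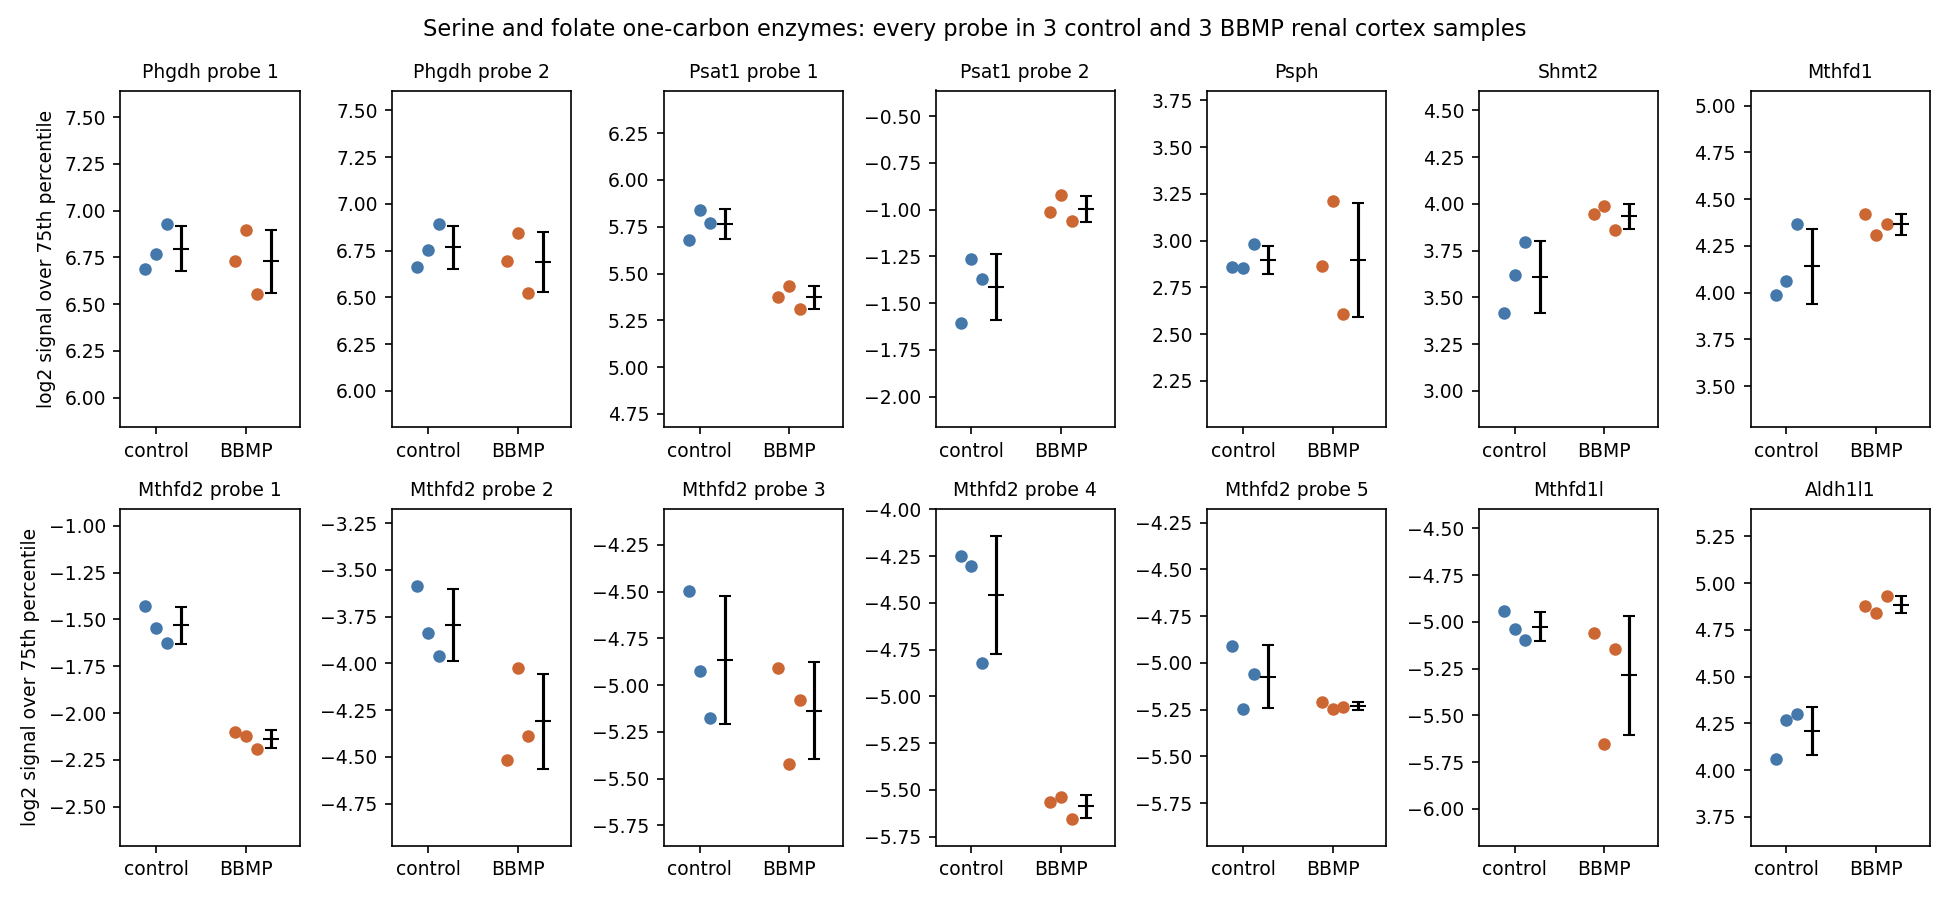
Normalised log2 signal (signal over the array's 75th percentile) of each of the 14 probes in 3 control and 3 BBMP samples, with points for samples and bars for the mean ± SD; every panel spans the same log2 range. The groups separate at Aldh1l1, at both Psat1 probes in opposite directions, at Shmt2 and at Mthfd2 probes 1, 2 and 4.

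Aldh1l1, the cytosolic 10-formyltetrahydrofolate dehydrogenase that returns formylated folate to free tetrahydrofolate with loss of the carbon as carbon dioxide, was the 1 enzyme called higher. Its relative signal was 16.7, 19.3 and 19.7 in the control samples and 29.4, 28.7 and 30.5 in the BBMP samples. All BBMP samples were above all controls. Aldh1l1 rose 1.6-fold, a log2 difference of 0.67 ± 0.08 (SE, n = 3 each; limma adjusted p = 0.0125). The scanner's processed signals, before any scaling, were 15846, 18271 and 18564 in the controls and 36658, 35668 and 38430 in the BBMP samples. The groups did not overlap there either, on BBMP arrays whose 75th percentile was itself higher (1244 to 1259, against 943 to 950 on control arrays). Its difference lay between 0.60 and 0.81 under the other scalings and background correction tried, each of them called. The call was lost by a small margin without BBMP replicate 1 (0.68, adjusted p = 0.0508) or BBMP replicate 2 (0.70, adjusted p = 0.0558), in fits with 1 sample fewer. It was kept without any 1 of the other arrays.

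Mthfd1, the cytosolic enzyme that carries the synthetase, cyclohydrolase and dehydrogenase steps on 1 protein, was measured by 1 probe. Its relative signal was 15.9, 16.7 and 20.7 in controls and 21.4, 19.8 and 20.6 in BBMP samples. Control replicate 3 lay among the BBMP samples. The log2 difference was 0.23 ± 0.11 (SE, n = 3 each; 95% interval -0.05 to 0.50; limma adjusted p = 0.204), so Mthfd1 did not pass. Without control replicate 3 it was 0.34 and passed (adjusted p = 0.0487).

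Shmt2, the mitochondrial serine hydroxymethyltransferase, was also represented by 1 probe. Its relative signal was 10.7, 12.3 and 13.9 in controls and 15.4, 15.9 and 14.6 in BBMP samples. The BBMP samples were higher without overlap, but the controls spread over a range as wide as the gap between group means. The log2 difference of 0.32 ± 0.11 (SE, n = 3 each; 95% interval 0.05 to 0.59) missed the threshold over all genes (limma adjusted p = 0.0922). It passed only with normexp background correction among the settings tried (0.33, adjusted p = 0.0484).

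Mthfd2, the mitochondrial dehydrogenase and cyclohydrolase known for high expression in embryonic and dividing cells, is 1 of the genes that chose the list. At its brightest probe the relative signal was 0.372, 0.343 and 0.324 in controls and 0.233, 0.230 and 0.219 in BBMP samples. The BBMP samples were all lower and lay close together. The fold was 1.52 lower, a log2 difference of -0.61 ± 0.07 (SE, n = 3 each). Before scaling the processed signal was 353, 325 and 306 in controls and 291, 286 and 276 in BBMP samples, still without overlap. It was no longer past the threshold without BBMP replicate 1 or BBMP replicate 2. This probe was dim relative to the array, brighter than 44.2% of tested probes.

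Mthfd2 had the most probes of any member, 5 in all, and all had a negative difference after scaling. Of 78 named genes with exactly 5 tested probes, 23 (29.5%) had 1 sign at all of them. The second probe had relative signals of 0.0833, 0.0699 and 0.0643 in controls and 0.0437, 0.0613 and 0.0478 in BBMP samples, a log2 difference of -0.51 ± 0.16 (SE). The fourth probe was at 0.0526, 0.0507 and 0.0353 in controls and 0.0211, 0.0215 and 0.0198 in BBMP samples, a difference of -1.13 ± 0.16 (SE). The groups did not overlap at either probe. The other 2 probes, probes 3 and 5, overlapped between groups, at -0.27 ± 0.21 and -0.16 ± 0.10 (SE). In the processed signals before scaling, probe 4 was still lower in BBMP samples without overlap, and probes 2 and 3 overlapped between groups. Probe 5 was higher in BBMP samples without overlap, at 31.6, 24.9 and 28.2 in controls and 33.7, 32.8 and 33.4 in BBMP samples. The shared sign of the 5 probes therefore rests on scaling between arrays. The 4 probes after the brightest were among the dimmest on the array, brighter than 6.03% to 18.0% of tested probes. Among the dimmest 10% of probes, which hold all but the 2 brightest Mthfd2 probes, the median difference of all probes was 0.28.

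Mthfd1l, the mitochondrial formyltetrahydrofolate synthetase that releases formate to the cytosol, was near the bottom of the array's range, brighter than 5.98% of tested probes. Its relative signal was 0.0326, 0.0305 and 0.0292 in controls and 0.0300, 0.0199 and 0.0283 in BBMP samples. BBMP replicate 2 was the lowest, and BBMP replicate 1 lay within the controls. The log2 difference of -0.26 ± 0.17 (SE, n = 3 each; 95% interval -0.67 to 0.15; limma adjusted p = 0.303) did not pass, and it was -0.08 without BBMP replicate 2. With normexp it passed, at -0.37 (adjusted p = 0.0116).

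Psat1, the phosphoserine aminotransferase and the middle enzyme of serine synthesis, is the other gene that chose the list, and its 2 probes went opposite ways. The bright probe (A_64_P162599) had relative signals of 51.3, 57.3 and 54.6 in controls and 41.5, 43.2 and 39.7 in BBMP samples. The BBMP samples were lower without overlap, 1.31-fold, a log2 difference of -0.39 ± 0.07 (SE, n = 3 each). The dim probe (A_44_P149161) had relative signals of 0.328, 0.417 and 0.387 in controls and 0.497, 0.529 and 0.480 in BBMP samples. Here the BBMP samples were higher without overlap, by 0.42 ± 0.10 (SE, n = 3 each). The log2 gap between the bright and the dim probe was 7.18 ± 0.10 in controls and 6.37 ± 0.02 in BBMP samples (SD, n = 3 each).

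Of 583 named genes with at least 2 probes called, 45 (7.72%) had calls in both directions, Psat1 among them. Averaged over both probes, the Psat1 difference was 0.01. Before scaling, the bright probe's processed signal was 48719, 54322 and 51499 in controls and 51637, 53811 and 50043 in BBMP samples. These ranges overlap, so the lower relative signal rests on scaling between arrays, here by the array's 75th percentile. The dim probe's processed signal was 312, 395 and 365 in controls and 618, 658 and 604 in BBMP samples, without overlap. The bright probe was lower under each scaling tried, between -0.47 and -0.38, and at -0.30 with normexp. The dim probe stayed positive in every setting, from 0.32 to 0.49, but was not called under median scaling, cyclic loess or quantile normalization, without the filter on dim probes, or with any 1 array left out. The bright probe was no longer past the threshold without any 1 array other than control replicate 1.

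**Figure D2:**
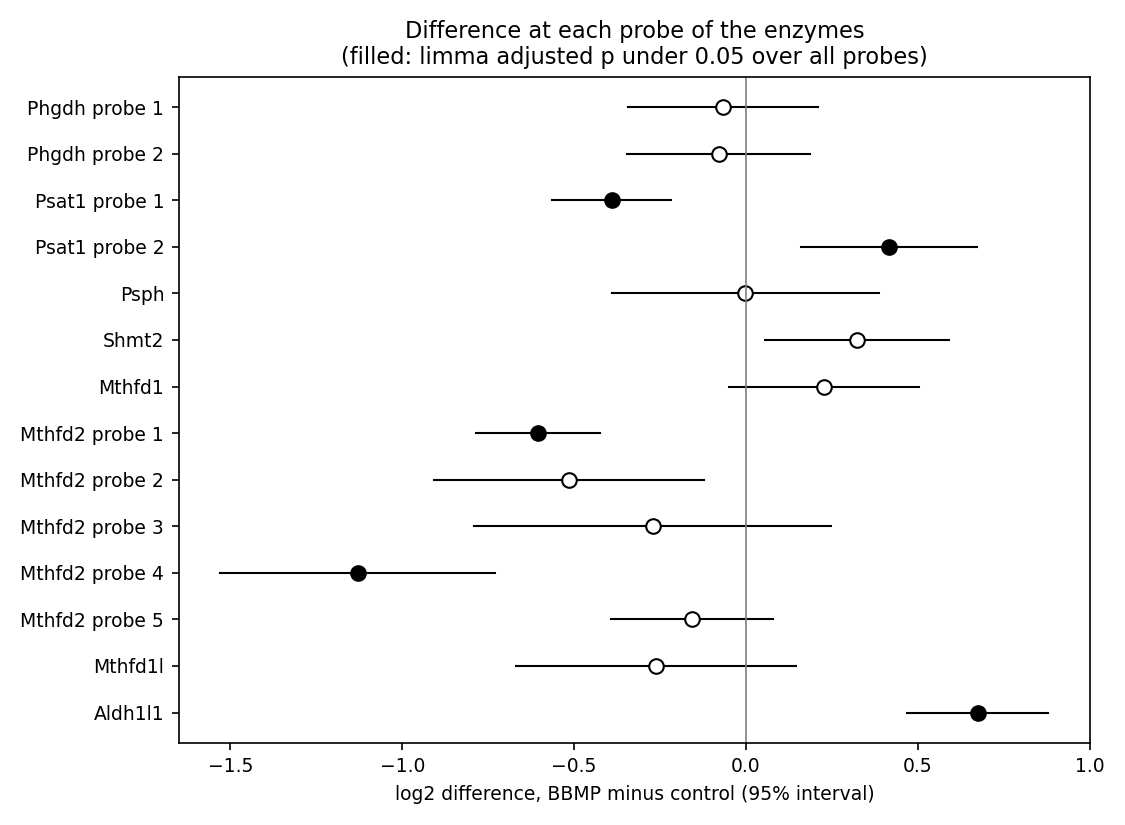
Log2 difference, BBMP minus control, at each of the 14 probes, with the 95% interval of the limma fit; filled points passed an adjusted p of 0.05 over all probes. All 5 Mthfd2 probes lie below 0, the Psat1 probes lie at -0.39 and 0.42, and Aldh1l1 lies at 0.67. Filled points of Mthfd2 and Psat1 are a description, because these genes chose the list.

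Phgdh, phosphoglycerate dehydrogenase, commits 3-phosphoglycerate to serine and was among the brightest signals on the array, brighter than 98.8% of tested probes. Its relative signal was 103, 109 and 122 in controls and 106, 119 and 94.1 in BBMP samples. The groups overlapped fully, with BBMP replicate 3 the lowest of all. The log2 difference was -0.07 ± 0.11 (SE, n = 3 each; 95% interval -0.34 to 0.21; limma adjusted p = 0.697). The second Phgdh probe gave -0.08 ± 0.11, with BBMP values of 104, 115 and 91.9 against 101, 108 and 119 in controls.

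Psph, the phosphatase that releases serine in the last step, had relative signals of 7.25, 7.22 and 7.91 in controls and 7.29, 9.28 and 6.10 in BBMP samples. The means were nearly equal, while the BBMP samples spread far wider, from below to above every control. The log2 SD was 0.30 in BBMP and 0.07 in control samples (n = 3 each). The difference was -0.0025 ± 0.16 (SE; 95% interval -0.39 to 0.39; limma adjusted p = 0.992). No test of the spread itself was made.

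**Figure D3:**
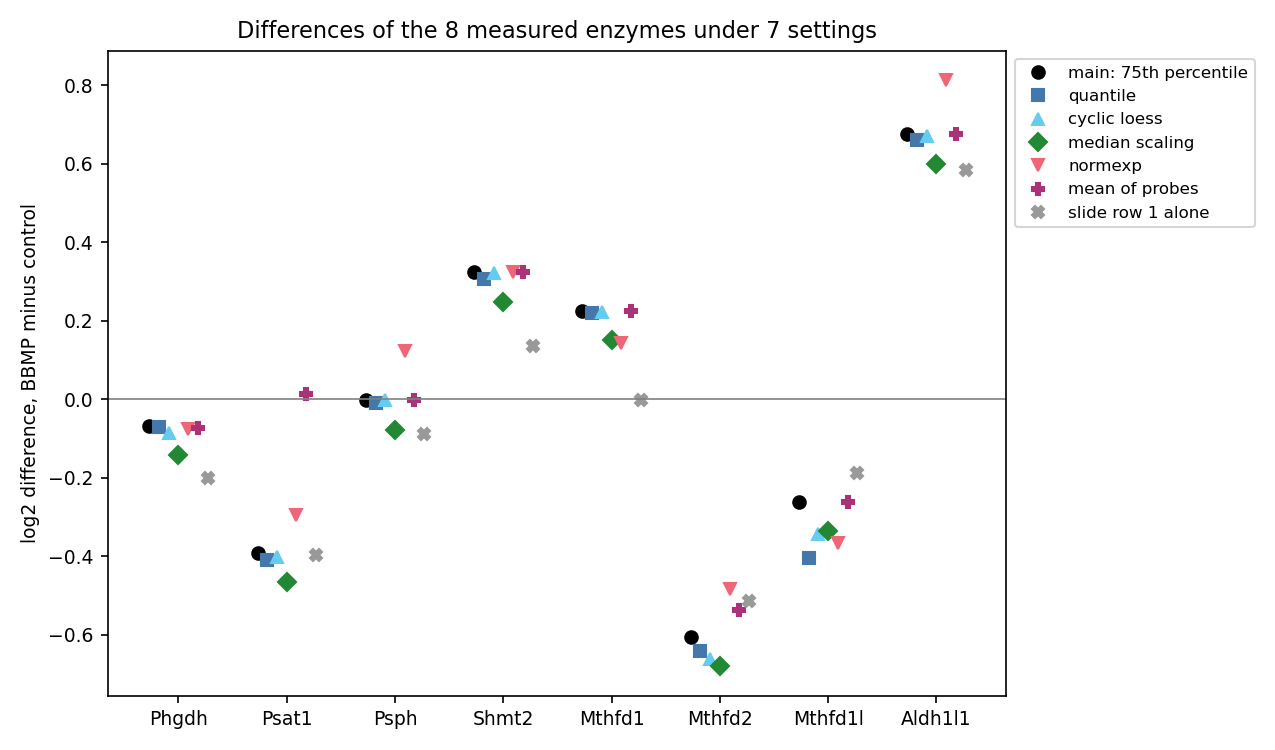
Log2 difference of the 8 measured enzymes under 7 settings: the main scaling, quantile, cyclic loess, median scaling, normexp, the mean of a gene's probes, and slide row 1 alone (1 control against 3 BBMP arrays). Aldh1l1 stays above and Mthfd2 below 0 throughout, Psat1 moves to 0.01 with the mean of its probes, and Mthfd1 falls to -0.0029 in slide row 1 alone.

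Slide 1, with scan 1, held only controls, and slide 2, with scan 2, only BBMP samples. Effects of treatment and of slide or scan therefore cannot be told apart. Control replicates 1 and 2 lay in slide row 2 as read from the file names, and the other 4 arrays in row 1. With slide row as a block, and equally in row 1 alone (control replicate 3 against 3 BBMP arrays), the differences were 0.58 for Aldh1l1, -0.51 for Mthfd2, -0.40 for Psat1, 0.14 for Shmt2 and -0.0029 for Mthfd1. Limma called 0 genes in the whole table with the row block and 39 in row 1 alone.

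The wider pathway was described with 8 lists of linked genes, 78 in all, of which 71 had a named probe and 70 were tested. Of the 70, 6 rose and 1 fell, 10% in all beside 17.9% of all genes. Their median log2 difference was 0.09, beside 0.049 over all genes. The groups did not overlap in 34.3% of them, beside 43.6% of all genes. Without BBMP replicate 1 or 2 none of the 70 was called by limma. Without control replicate 1, control replicate 2 or BBMP replicate 3, Sardh was the 1 gene called, and without control replicate 3 there were 4 higher and 2 lower.

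**Figure D4:**
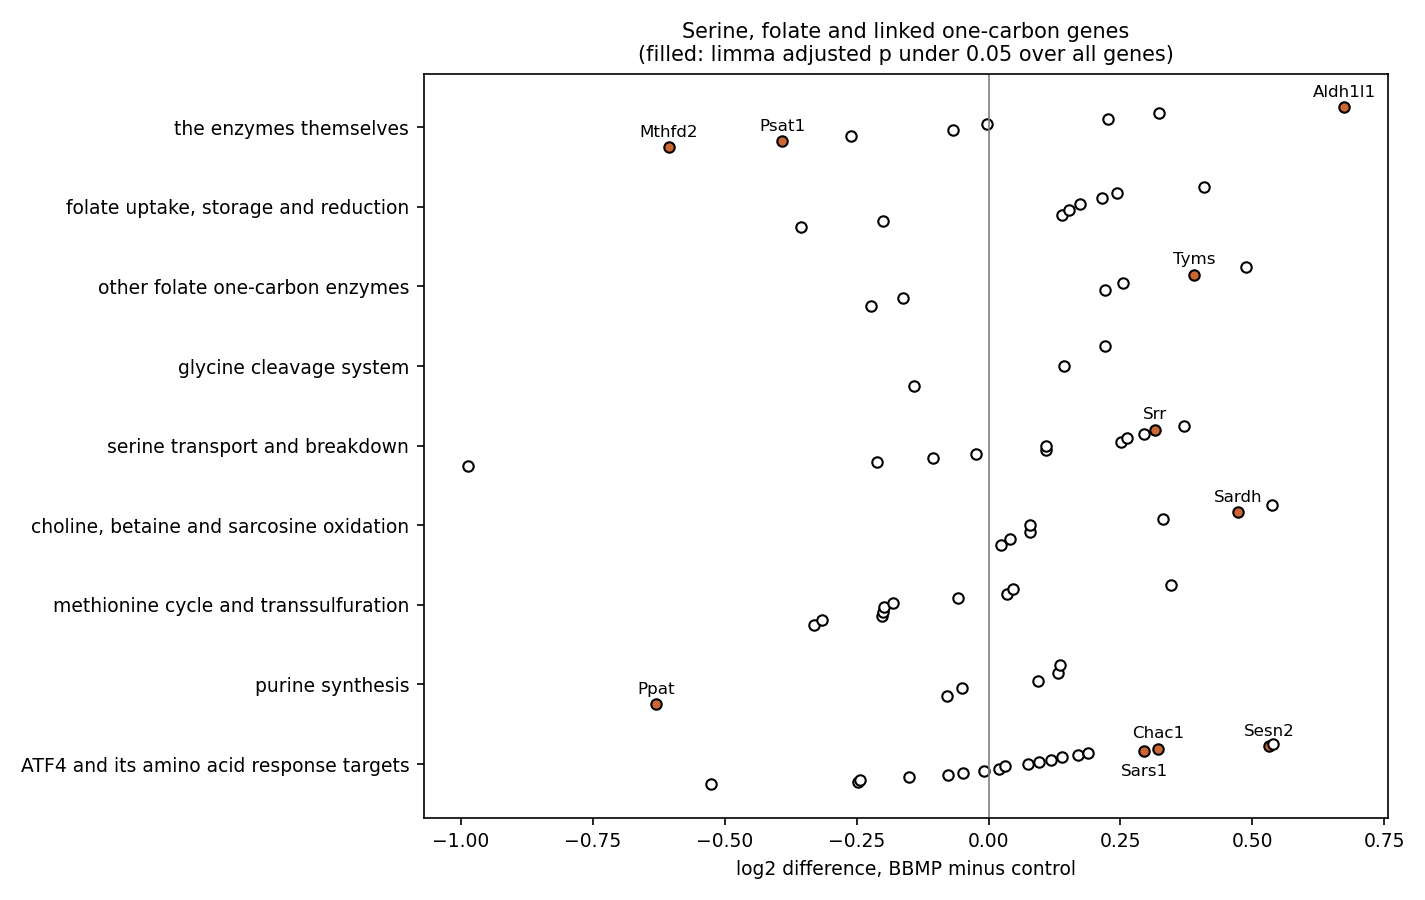
Log2 difference, BBMP minus control, of each tested gene in the enzyme list and the 8 linked lists; filled and named points passed a limma adjusted p of 0.05 over all genes. The called linked genes are scattered over 5 of the 8 linked lists, with Ppat the 1 called lower at -0.63. In the enzyme list, the filled points of Mthfd2 and Psat1 are a description, because these genes chose the list.

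Folate supply showed no called gene. Of 8 genes of folate uptake, storage and reduction, 0 rose and 0 fell. Their largest differences were 0.41 ± 0.23 for Fpgs, which adds the glutamate tail that retains folate, and -0.36 ± 0.16 for Ggh, which removes it (SE; limma adjusted p = 0.254 and 0.166). Fpgs lay among the dimmest 10% of genes, where the median difference of all genes was 0.29, and with normexp it was at -0.12. Of the 8, 6 had a positive difference. Qdpr, Slc19a1 and Folr1 were higher without overlap, at 0.21, 0.24 and 0.17 (limma adjusted p = 0.0588, 0.0791 and 0.0862). Of 6 other folate enzymes, 1 rose and 0 fell. Mthfs was not called at its brightest probe, but 1 of its other probes was called lower. Tyms, thymidylate synthase, which spends the one-carbon unit on dTMP, rose 1.31-fold (limma adjusted p = 0.0303), from a relative signal of 0.638 to 0.691 in controls to 0.791 to 0.923 in BBMP samples.

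Of 11 genes of serine transport and breakdown, Srr rose 1.24-fold and 0 fell (limma adjusted p = 0.0245). The differences ran from -0.99 ± 0.71 for Slc7a10 to 0.37 ± 0.15 for Slc6a20a (SE), neither of them called. The dim Slc7a10 overlapped between groups (limma adjusted p = 0.357) and was well above background on 5 of 6 arrays. Sfxn1 was not called at its brightest probe, but its other probe was called higher. Srr, serine racemase, was at 0.537 to 0.585 in controls and 0.688 to 0.710 in BBMP samples. In the glycine cleavage system, 0 of 3 were called, with Gcsh at 0.22 ± 0.10 and Amt at 0.14 ± 0.09 (SE; limma adjusted p = 0.165 and 0.293). Gcsh passed with normexp, at 0.31.

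In choline, betaine and sarcosine oxidation, all 7 tested genes had a positive difference, as did 17827 of the 31582 genes tested, and Sardh passed. At the brightest probes the groups overlapped in the other 6, and Chdh, Bhmt2, Dmgdh and Pipox were at 0.02 to 0.08. Bhmt was at 0.54 ± 0.24 and Gnmt at 0.33 ± 0.18 (SE; limma adjusted p = 0.166 and 0.231). The other Chdh probe was called higher. Sardh, sarcosine dehydrogenase, rose 1.39-fold (limma adjusted p = 0.0141), from 1.02 to 1.03 in controls to 1.34 to 1.48 in BBMP samples. In the methionine cycle and transsulfuration, 0 of 10 passed and 3 had a positive difference. Cbs, which joins serine and homocysteine, was at 0.34 ± 0.10 (SE; limma adjusted p = 0.0633) and passed with the mean of its probes (0.39) and with trend and robust moderation (0.34). Mtrr, which reactivates methionine synthase, was at -0.20 ± 0.06 (SE; limma adjusted p = 0.0624) at its brightest probe, and its other 2 probes were called lower. Mat1a, the liver-type methionine adenosyltransferase, was at -0.33 ± 0.54 (SE; limma adjusted p = 0.695).

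Of 6 genes of purine synthesis, Ppat fell and 0 rose. Ppat, the amidotransferase that opens the purine pathway, fell 1.55-fold (limma adjusted p = 0.0220), from 0.816 to 0.911 in controls to 0.494 to 0.647 in BBMP samples. Gart and Atic, the enzymes of that pathway that take up formyl groups from folate, were at 0.13 ± 0.06 and -0.08 ± 0.06 (SE) and did not pass.

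ATF4 is a transcription factor of the amino acid response, and Phgdh, Psat1, Shmt2 and Mthfd2 are known targets of it. Of 19 tested genes of the list of ATF4 and its other targets, 3 rose and 0 fell, 15.8% beside 17.9% of all genes. The groups did not overlap in 31.6% of them, beside 43.6% of all genes. Their median difference was 0.07, beside 0.049 over all genes. Wars1 on this list was not called at its brightest probe, but its other 2 probes were called higher. Sesn2, a stress-induced regulator of growth signalling, rose 1.45-fold (limma adjusted p = 0.0331). Chac1, which degrades glutathione, rose 1.25-fold (adjusted p = 0.0263), and Sars1, seryl-tRNA synthetase, 1.23-fold (adjusted p = 0.0305). Atf4 itself was at -0.24 ± 0.09 and the classical target Asns at 0.14 ± 0.13 (SE), and neither passed. With normexp Chac1 was at 0.17 and did not pass, and Sars1 did not pass with median scaling, at 0.22.

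Markers of cell types were set beside these values. Of 10 proximal tubule markers, all well above background on all 6 arrays, 0 were called, and 6 had a positive difference. Their summed relative signal was 1355 to 1435 in controls and 1429 to 1462 in BBMP samples. Slc5a12 at -0.48 ± 0.16 and Slc22a8 at 0.22 ± 0.09 (SE) did not overlap between groups (limma adjusted p = 0.0918 and 0.156). None of 6 markers of proliferating cells was called at its brightest probe, with sums of 6.88 to 9.32 in controls and 6.38 to 7.03 in BBMP samples. Of the 6, 2 had a positive difference. Pcna was at -0.24 ± 0.07 (SE, limma adjusted p = 0.0550), and its other probe was called lower. Rrm2 was at -0.45 ± 0.21 (SE, limma adjusted p = 0.188) without overlap, and its 3 other probes also had a negative difference. Cdk1, Ccnb1, Birc5 and Bub1 were at 0.05, 0.0038, -0.02 and -0.14, with overlap between groups. None of 5 thick ascending limb and distal tubule markers, 6 collecting duct markers or the 1 tested adipocyte marker was called, and their sums overlapped between groups. Of the 5 thick ascending limb and distal tubule markers, 3 had a positive difference. Their sum was mostly Umod, at 231 to 450 in controls and 285 to 409 in BBMP samples. Calb1 on that list was at -0.64 ± 0.19 (SE, limma adjusted p = 0.0672) without overlap. The other probe of Slc4a1, a collecting duct marker, was called higher. Of 5 podocyte markers 2 rose, and of 5 leukocyte markers 1 rose, also with overlapping sums. The podocyte marker Wt1 was not called at its brightest probe, but 1 of its other probes was called higher. The 3 tested adrenal markers had sums of 2.66 to 2.69 in controls and 3.35 to 3.52 in BBMP samples, 2 of them called higher, while Cyp11b1 and Star were not well above background on all arrays of either group. Th, the brightest of the 3 and called higher, had a negative difference at its other probe, which was not called. The part of cell makeup in the enzyme differences was not tested.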

How the data were processed

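Per the file headers, Agilent Feature Extraction read the arrays, and the deposited scanner files give intensity on a linear scale, with the processed signal already background-subtracted, and flags scored 0 or 1. The authors' deposited table gives a ratio per probe, equal to the processed signal over the array's 75th percentile. Of its 6 columns, 0 held the values of their own sample's scanner file and 6 those of a different replicate in the same group, shifted alike in both groups. Replicate numbers are therefore uncertain, and groups are not. Its column medians were 0.1072 to 0.1138, with no centring per probe.

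Of 61657 non-control probes, 84 ERCC spike-in probes and 10 with an outlier flag were left out; no member's probe was among the latter. Each log2 processed signal was set relative to the 75th percentile on its array. Testing required a probe to be well above background in every array of either group, which left 42657 probes. Names came from unversioned RefSeq accessions in a table of GRCr8; the array design is annotated to rn4, so the positions given are those of the GRCr8 upstream windows, not of probes. The probe with the highest mean represented a gene, for 31582 genes or sequences, 12077 of them named.

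The comparison used limma 3.58.1 (lmFit, then eBayes; two-sided, without covariates) under R 4.3.3, with Benjamini-Hochberg adjustment over the whole table; the functions were tested on simulated data. The 3 arrays per group limit the precision. The design text calls the samples biological replicates, and the protocol speaks of 3 animals per group. Named linked genes are all those called, or, in a list with none, the 2 that differed most, if well above background on 6 of 6 arrays; other genes named were chosen after their values were seen. The members and lists were chosen with earlier results of these data known. Alternatives covered background correction, scaling, the ratio table, filters, probe choice, moderation, blocks and leaving out each array. Plots were made in matplotlib 3.10.9 (Python 3.11.15).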

Additional observations from a re-analysis of the deposited data

How the results depend on the processing

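With the replicate number as a block, limma called 0 enzymes higher, 0 lower, 0 of their probes and 0 linked genes, and 0 genes in the whole table; 1 enzyme was higher and 2 lower at an unadjusted p under 0.05. Same-numbered samples did not deviate together (correlations of -0.12, -0.08 and -0.07), so the numbers are not taken as pairs. With slide row as a block and in slide row 1 alone, the counts of enzymes, probes and linked genes were also 0, with 8 and 6 linked genes higher and 5 and 2 lower at an unadjusted p under 0.05; the lone control of row 1 is assumed to vary like the BBMP samples. In both, Mthfd1 was at -0.0029, Amt at -0.010 and the third Mthfd2 probe at 0.039. Normexp gave 2 enzymes higher, 10 of 14 probes called and 8 linked genes lower, and it moved the median of all genes from 0.049 to -0.062. Of called genes, 57.1% were higher with the main scaling, 36.4% with normexp and 35.9% with median scaling. Linked genes called higher went from 6 to 3 with no filter on dim probes and to 12 with trend and robust moderation. Those called lower went from 1 to 2 with quantile normalization or the mean of a gene's probes and to 3 with median scaling or trend and robust moderation. With the mean of its probes Psat1 was at 0.013, which left 1 enzyme lower. Psph was at 0.12 with normexp and 0.0062 with the percentile over detected probes, and Fpgs at -0.12 with normexp. Leaving out each array, enzymes called higher ranged from 0 to 2 and lower from 0 to 2, called probes from 0 to 5, and linked genes from 0 to 4 higher and 0 to 2 lower. Differences that changed sign ranged from -0.16 to 0.14 for Psph, -0.15 to 0.018 for Phgdh, -0.16 to 0.0039 for its second probe and -0.77 to 0.092 for Mat1a, the last 3 without BBMP replicate 3. Of 345 gene or probe values under the other settings, 281 kept direction and side of the threshold, 45 lost their call, 9 gained one and 10 changed sign. Leaving out arrays, 102 of 162 kept both, 53 lost their call, 1 gained one and 6 changed sign. The cause of these changes was not tested.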
